A study of Mus musculus with 6 samples.

Results

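Voltage-gated calcium and sodium channel genes were followed in neural stem and progenitor cells (NSPC) sorted from the subgranular zone (SGZ), where the dentate gyrus forms new neurons. The genes were taken by symbol: Cacna1 and Cacna2d genes, Cacnb1 to Cacnb4, Cacng1 to Cacng8, and the Scn genes with a number and a final a or b. This gave 40 of the 55471 genes in the table, of which 30 had a mean normalized count of at least 10 over the 6 libraries and could be tested. Bulk RNA-seq had been made from 3 NTG;Nestin-YFP and 3 3xTg;Nestin-YFP biological replicates at postnatal day 35, 10 days after the last tamoxifen dose. 3xTg mice carry 3 human transgenes with disease mutations and serve as a model of Alzheimer disease, while NTG mice are the non-transgenic controls. Both groups carried the tamoxifen-inducible Nestin-CreERT2 driver and the ROSA26 EYFP reporter, so that cells with an active Nestin promoter at the time of tamoxifen, and their later progeny, were YFP-positive. Viable YFP-positive cells were sorted, and other cells in which the driver was active would pass the same gate. The NTG mice were bred as their own colony on this background, and for every value given here genotype and colony cannot be told apart.

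Voltage-gated calcium channels are built around one pore-forming α1 subunit. In the Cav1 (L-type) and Cav2 (P/Q-, N- and R-type) families the α1 subunit is joined by an intracellular β and a largely extracellular α2δ subunit, whereas Cav3 (T-type) channels open at more negative voltages and can work without them. Most γ subunit genes encode transmembrane AMPA receptor regulatory proteins, which traffic and tune glutamate receptors, and only Cacng1 and Cacng6 are regarded as calcium channel subunits in the strict sense. Sodium channels consist of a large α subunit, which forms the pore and carries the action potential upstroke, and of β subunits, which alter gating and act as cell adhesion molecules. In the hippocampus these channels are best known from neurons, but cells of the oligodendrocyte lineage and newborn neurons also express several of them.

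The sodium channel α genes Scn3a, Scn2a and Scn1a, with Scn9a and Scn7a, lie in 1 cluster on chromosome 2 and resemble each other closely, which bears on how far their counts can be told apart. In the longest coding transcript of each gene (GENCODE M21, GRCm38), 8.53% of the 50-base windows of Scn3a occurred without mismatch in a transcript of another gene on either strand. This share was 7.87% for Scn2a, 5.48% for Scn1a and 5.52% for Scn9a, but 0.0527% for Scn8a, which lies on chromosome 15. Reads longer than 50 bases would match several genes less often than these windows do. How reads that align equally well to several genes were counted is not given in the sources used here, so that part of the counts of Scn1a, Scn2a, Scn3a and Scn9a is uncertain. The longest stretch shared by Scn3a and Scn8a was 55 bases across 1 exon junction, printed here with the 50 bases that Scn2a also holds in capitals.
Scn3a and Scn8a: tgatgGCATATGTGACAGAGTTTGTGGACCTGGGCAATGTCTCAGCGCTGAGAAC

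Cacng5, Scn8a and Cacna2d1 were 3 of the 5 members with an unadjusted limma p under 0.05, and their promoters, as listed by RefSeq for GRCm38.p6, are shown to place these genes. At least 1 promoter of 300 bases, from 250 before to 50 after a transcription start, was matched for 30 of the 40 members, 41 promoters in all. Capitals mark GGGCGG on either strand, the GC box bound by Sp1-type factors, where overlapping matches run together. The Cacng5 promoter is that of the outer of the gene's pair of listed starts (chr11:107915006-107915305, minus strand), with 17 CpG dinucleotides and 2 matches. That of Scn8a is the outer start as well (chr15:100870395-100870694, plus strand), with 38 CpG and 0 matches. The promoter of Cacna2d1 (chr5:15934441-15934740, plus strand) held 42 CpG and 7 matches.
Cacng5: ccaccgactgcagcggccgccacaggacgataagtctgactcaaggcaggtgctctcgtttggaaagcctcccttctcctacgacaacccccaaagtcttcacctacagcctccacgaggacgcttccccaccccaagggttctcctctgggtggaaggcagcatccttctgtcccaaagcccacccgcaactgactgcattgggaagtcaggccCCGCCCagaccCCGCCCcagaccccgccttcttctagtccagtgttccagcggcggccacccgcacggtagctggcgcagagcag
Scn8a: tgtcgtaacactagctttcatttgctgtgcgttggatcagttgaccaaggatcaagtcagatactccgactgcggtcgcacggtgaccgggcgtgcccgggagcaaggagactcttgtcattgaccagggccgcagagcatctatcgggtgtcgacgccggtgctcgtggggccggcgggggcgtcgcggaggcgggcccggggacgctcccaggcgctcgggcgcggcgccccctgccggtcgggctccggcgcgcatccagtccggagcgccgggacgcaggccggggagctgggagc
Cacna2d1: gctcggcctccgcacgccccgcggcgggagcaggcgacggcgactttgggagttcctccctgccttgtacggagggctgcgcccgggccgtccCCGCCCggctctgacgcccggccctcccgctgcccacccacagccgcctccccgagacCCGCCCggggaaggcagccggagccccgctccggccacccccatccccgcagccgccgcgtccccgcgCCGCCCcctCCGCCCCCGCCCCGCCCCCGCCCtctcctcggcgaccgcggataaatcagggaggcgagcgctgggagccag
Over all 41 member promoters, 39.0% held GGGCGG, against 35.7% of the 32851 promoters of this length. The E-box CAGCTG was in 31.7% of member promoters and 16.3% of all promoters, and TATAAA in 4.88% and 13.6%. Median CpG counts were 9 in member promoters and 7 in all promoters.

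Depth ranged from 32731794 to 42576455 assigned reads in NTG and from 53063475 to 81800375 in 3xTg, so that each 3xTg library was deeper than each NTG library. Along the first principal component, which held 48.5% of the variance, 3xTg replicate 1 stood at 0.16, between the NTG libraries (-0.54 to -0.29) and the other 3xTg libraries (0.45 and 0.54). Stem cell markers were all detected: Slc1a3, a glutamate transporter of radial glia and astrocytes, had normalized counts of 340941 to 443418, and Nes, which encodes Nestin, 741 to 982. Oligodendrocyte genes were high too, with Mbp, a myelin protein gene, at 42078 to 90926. Of the mature neuron genes, Snap25 stood at 1069 to 1760.0, below Slc1a3 and Mbp but above Nes. Because these were bulk samples, fewer cells of a type and less RNA per cell cannot be told apart.

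Levels of the channel genes, set on a common scale as normalized counts per kb of exon, differed by 197-fold among the 30 tested members. Cacnb1, a calcium channel β subunit gene, was the highest at 401 ± 61.8 (SD over 6 libraries), and the AMPA receptor regulatory genes Cacng4 and Cacng5 stood at 343 and 283. Of the pore-forming genes, Cacna1a of the P/Q-type channel stood highest at 92.9, before Scn8a, the sodium channel of nodes of Ranvier and axon initial segments, at 74.0. Cacna1h (T-type) and Cacna1d (L-type) followed at 36.0 and 35.3. One gene held a large share of the signal per kb in most families. Cacna1a made up 80.4% to 92.0% of the Cav2 sum in the single libraries, Cacna1d 67.7% to 77.7% of Cav1 and Cacna1h 71.1% to 79.2% of Cav3. Scn8a made up 49.5% to 72.6% of the sodium channel α sum, Cacnb1 59.6% to 69.0% of the calcium channel β sum and Cacna2d2 52.8% to 65.7% of the α2δ sum. Each of these 6 genes was the highest of its family in all 6 libraries. Among the γ genes the order was not fixed: Cacng4 was highest in 4 libraries and Cacng5 in 2. Tested neighbours in the order of levels whose ranges overlapped included Scn3a and Scn2a, Scn2b and Scn4b, Cacna1b and Cacna1e, Cacna2d3 and Cacna2d4, Cacna2d4 and Cacna2d1, Cacng4 and Cacng5, and Cacng3 and Cacng2.

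**Figure D1:**
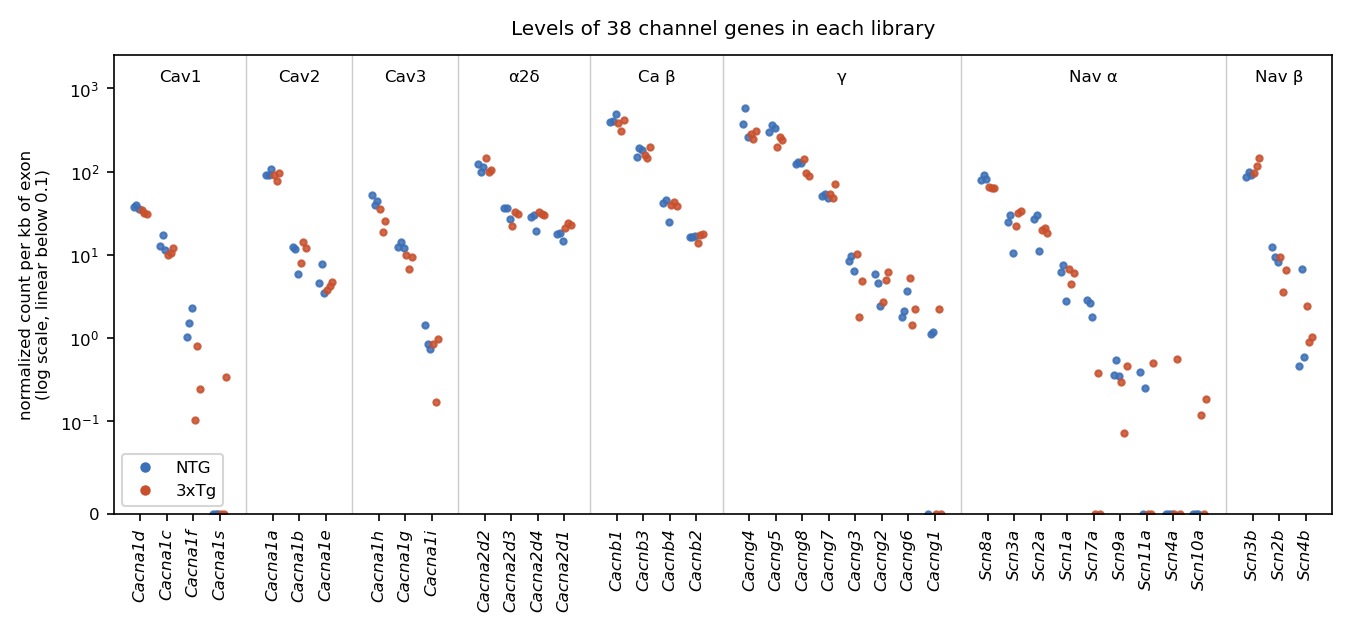
Normalized counts per kb of exon (log scale, linear below 0.1) of 38 of the 40 channel genes in each of the 3 NTG and 3 3xTg libraries, by family and in falling order of the mean. Cacnb1, Cacng4 and Cacng5 stand highest of the genes shown, and 10 genes have means too low to be tested.

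The 10 members below a mean of 10 were Cacna1f, Cacna1s, Cacna1i, Cacng1, Cacng6, Scn4a, Scn7a, Scn9a, Scn10a and Scn11a. Most of these are known from other organs: Cacna1s, Cacng1 and Scn4a from skeletal muscle, Cacna1f from the retina, and Scn9a, Scn10a and Scn11a from sensory neurons. Cacna1s, Scn4a and Scn10a had 0 reads in each NTG library, which allows up to 3 reads per library by counting error alone, and at most 7 reads in a 3xTg library. The members nearest to the threshold were Scn4b at a mean of 10.2, which was tested, and Scn7a at 9.47, which was not. Scn7a encodes a sodium-sensing channel that is not gated by voltage in the usual way. It had 18, 14 and 9 reads in NTG and 0, 5 and 0 in 3xTg (normalized counts of 21.1, 19.6 and 13.3 against 0, 2.81 and 0). Its groups did not overlap, but its level was at the edge of what could be measured. When all genes with a read were tested, Scn7a was called lower in 3xTg (limma adjusted p = 0.0195), in a fit that called 1.55% of 33130 genes. Scn7a is described here after its values were seen. Cacna1f, with 8, 10 and 14 reads in NTG and 1, 13 and 3 in 3xTg, also had groups that did not overlap once normalized (9.36 to 20.7 against 0.942 to 7.31). In that fit it was not called.

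None of the 30 tested members was called different between 3xTg and NTG cells. A call required an adjusted p under 0.05, by limma on log2(normalized count + 1) with Benjamini-Hochberg adjustment over all 18664 tested genes, and a fold change of 3xTg over NTG that exceeded 0.5 in size on the log2 scale. By this rule 2.80% of all tested genes were called, 210 higher and 312 lower. edgeR on the recovered reads also called 0 members (2.84% of all genes), and DESeq2 called 2, Cacng5 and Cacna1h, both lower, where it called 7.16% of all genes. At an unadjusted limma p under 0.05 there were 5 members, 1 higher and 4 lower, or 16.7% of those tested against 23.5% of all tested genes. The groups did not overlap for 7 members, 2 higher and 5 lower, or 23.3% against 27.7% of all tested genes. Both shares were thus at or below those of genes in general. The median log2 fold change of the members was -0.12, with 11 above and 19 below 0, and that of all tested genes was 0.0071. Standard errors of the members ran from 0.11 for Scn8a to 0.84 for Scn4b, with a median of 0.22, and for 21 of the 30 the whole 95% interval lay within a log2 fold change of 1 in size.

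**Figure D2:**
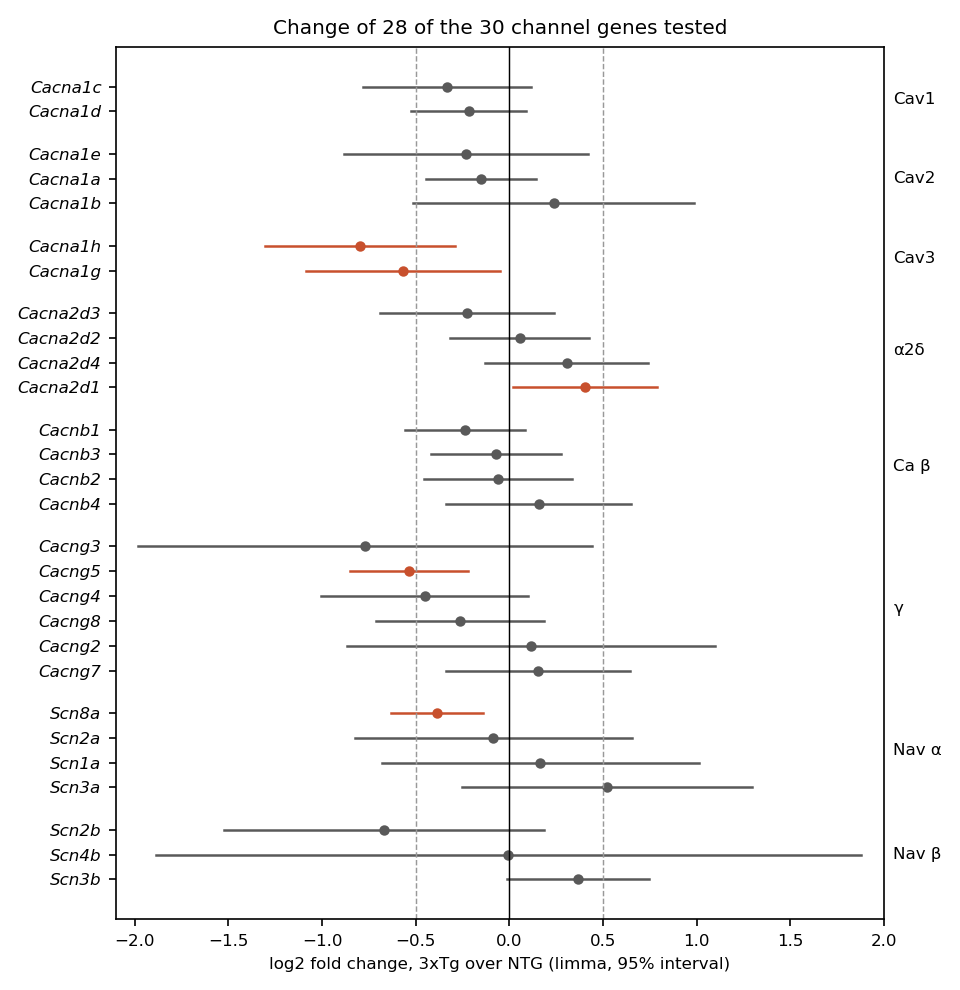
Log2 fold change, 3xTg over NTG, of 28 of the 30 tested channel genes with 95% intervals from limma, by family, with dashed lines at the fold threshold of 0.5. The 5 genes in orange have an unadjusted p under 0.05 (Cacna1h, Cacna1g, Cacng5, Scn8a and Cacna2d1), and none passed adjustment.

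The L-type genes were close to each other in change. Cacna1d had normalized counts of 479.8, 506 and 453 in NTG and 443, 403 and 391 in 3xTg. The groups did not overlap, yet the log2 fold change was only -0.22 (standard error 0.14, 95% interval -0.53 to 0.09, limma adjusted p = 0.362). Cacna1c, the L-type gene known from heart and brain, was measured at 270.3, 373 and 243 in NTG and at 211, 222 and 260.2 in 3xTg, with groups that overlapped (-0.33, standard error 0.20, limma adjusted p = 0.340). Without NTG replicate 2 it was -0.15. Exons of Cacna1d and of Chdh, on the opposite strand, share 589 bases, 4.67% of the exon length of Cacna1d, and the kit does not mark strand. Chdh itself had 177 to 435 normalized counts over the 6 libraries.

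Of the presynaptic Cav2 channels, Cacna1a was at 1055, 1048 and 1244 in NTG and 1040.1, 880.2 and 1098 in 3xTg. Its log2 fold change was -0.15 (standard error 0.13, 95% interval -0.45 to 0.14, limma adjusted p = 0.512), one of the narrower intervals among the members. Cacna1b, of the N-type channel, had 123, 116 and 59.2 in NTG and 79.1, 144 and 122 in 3xTg. NTG replicate 3 was the lowest library, and the fold change of 0.24 (standard error 0.34) turned to -0.10 without it. Cacna1e, of the R-type channel, was at 88.7 to 195 in NTG and 96.1 to 120.4 in 3xTg.

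Both tested T-type genes lay lower in every 3xTg library than in any NTG library. Of all tested genes, 27.7% had groups that did not overlap, in either direction. Cacna1h (chromosome 17, 25374285 to 25433783, minus strand) had normalized counts of 511, 387 and 430.4 in NTG and 344, 186 and 253 in 3xTg. The group means were 443 ± 63.1 and 261 ± 79.4 (SD, n = 3 each), and 3xTg replicate 1 was the nearest to NTG. The log2 fold change of -0.80 (standard error 0.23, 95% interval -1.31 to -0.29) missed the threshold with a limma adjusted p of 0.0912. Leaving out single libraries gave -1.02 to -0.58 with limma adjusted p of 0.0185 to 0.322. The lowest p came without 3xTg replicate 1, in a fit that called 10.9% of all genes, and the highest without 3xTg replicate 2. DESeq2 gave -0.78 with an adjusted p of 0.0164. Cacna1g (chromosome 11, 94408391 to 94474198, minus strand) was at 125, 144 and 123 in NTG and 101, 69.2 and 96.6 in 3xTg, with means of 131 ± 11.9 and 88.9 ± 17.2 (SD, n = 3 each). Its log2 fold change was -0.57 (standard error 0.23, 95% interval -1.09 to -0.05, limma adjusted p = 0.182). The third T-type gene, Cacna1i, had 3 to 13 reads per library and was not tested. Per kb, Cacna1h was above Cacna1g in 6 of 6 libraries.

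Markers of vessel cells lay lower in 3xTg, as both tested T-type genes did. Their order over single libraries did not match that of Cacna1g throughout. Among the NTG libraries, replicate 2 was highest for Cacna1g (144) and lowest for the pericyte and smooth muscle markers (sum 32523). All 8 endothelial markers lay lower in 3xTg, 3 of them called (Tie1, Eng and Cldn5), and their summed level was 6191 to 7303 in NTG and 2539 to 4626 in 3xTg. Of 8 pericyte and smooth muscle markers 7 were tested, all lower and 2 called (Rgs5 and Higd1b), with a summed level of 32523 to 41540 in NTG and 18027 to 30163 in 3xTg. Among all tested genes, 2.80% were called in either direction and 49.2% lay below 0. With single libraries left out, calls ran from 0 in both lists (without 3xTg replicate 2) to 7 and 6 (without 3xTg replicate 1). These fits called 0.895% and 10.9% of all genes. In both lists 3xTg replicate 1 was the 3xTg library nearest to NTG, as for Cacna1h, and no marker of either list was at 0 in any library. Fibroblast and microglia markers lay lower too, with 3 of 3 and 6 of 6 tested below 0 and 1 called in each list. In each, 3xTg replicate 1 had the highest sum of the 3xTg libraries (1557 and 4255). For microglia this lay within the NTG range (3998 to 5389). The same library was nearest along the first principal component of all tested genes (0.16, against 0.45 and 0.54). Scn8a and Cacna1d had it nearest to NTG too, so this order was not particular to T-type genes and vessel markers. The part of vessel cells in the T-type values was not tested.

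The α2δ genes differed among themselves in direction. Cacna2d1 (chromosome 5, 15934691 to 16374511, plus strand), a gene of a gabapentin-binding α2δ subunit, had 222, 229 and 185 in NTG and 259, 298 and 283 in 3xTg. It was the single member with a higher value at an unadjusted p under 0.05, with a log2 fold change of 0.40 (standard error 0.17, 95% interval 0.02 to 0.79, limma adjusted p = 0.194). Means were 212 ± 23.6 and 280.1 ± 19.7 (SD, n = 3 each), and the groups did not overlap. Cacna2d2, the most abundant of the family, was at 977, 779.7 and 893 in NTG and 1157, 782 and 844 in 3xTg (0.055, standard error 0.17, limma adjusted p = 0.865). Without 3xTg replicate 1 the value turned to -0.11. Cacna2d4, at 185 to 283 in NTG and 290 to 309 in 3xTg, did not overlap between groups (0.31, limma adjusted p = 0.366), and Cacna2d3 overlapped (-0.23).

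The β subunit genes lay within a log2 fold change of -0.24 to 0.16. Cacnb1, known as the β subunit of skeletal muscle and also expressed in brain, had 1782, 1846 and 2258 in NTG and 1742, 1386 and 1879 in 3xTg. Its log2 fold change of -0.24 (standard error 0.14, 95% interval -0.56 to 0.08, limma adjusted p = 0.342) was the largest of the family in size. Cacnb3 and Cacnb2 lay at -0.070 and -0.060 and Cacnb4 at 0.16, the last with an NTG replicate 3 at 225 where the other NTG libraries had 373 and 407.

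Among the AMPA receptor regulatory genes, Cacng5 had the lowest adjusted p of all members. This gene (chromosome 11, 107874605 to 107915055, minus strand) encodes a type II regulatory protein, and its promoter is printed above. It was measured at 1142, 1412 and 1293 in NTG and at 753, 994 and 911 in 3xTg, with means of 1282 ± 135 and 886 ± 123 (SD, n = 3 each). Every 3xTg library lay below every NTG library. The log2 fold change was -0.54 (standard error 0.14, 95% interval -0.85 to -0.22), with a limma adjusted p of 0.0750. DESeq2 put it at -0.54 with an adjusted p of 0.0138. With upper-quartile scaling, which called 2.78% of all genes, the limma adjusted p was 0.0499, and without single libraries it was 0.0647 to 0.208. Cacng4, next to Cacng5 in a cluster with Cacng1 on chromosome 11, was at 1322, 2088 and 926 in NTG and 1014, 881 and 1117 in 3xTg. NTG replicates were spread over more than the difference between groups (-0.45, standard error 0.25, limma adjusted p = 0.292). The value was -0.15 without NTG replicate 2 and -0.73 without NTG replicate 3 (limma adjusted p = 0.659 and 0.0798). Cacng3 had the largest change of the family in size but few reads: 23.4, 26.6 and 17.7 against 28.3, 5.06 and 13.4 (-0.77, standard error 0.54, 95% interval -1.98 to 0.44). Its value was -0.18 without 3xTg replicate 2 and -1.32 without 3xTg replicate 1. Cacng8, Cacng7 and Cacng2, the stargazin gene, lay at -0.27, 0.15 and 0.12.

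**Figure D3:**
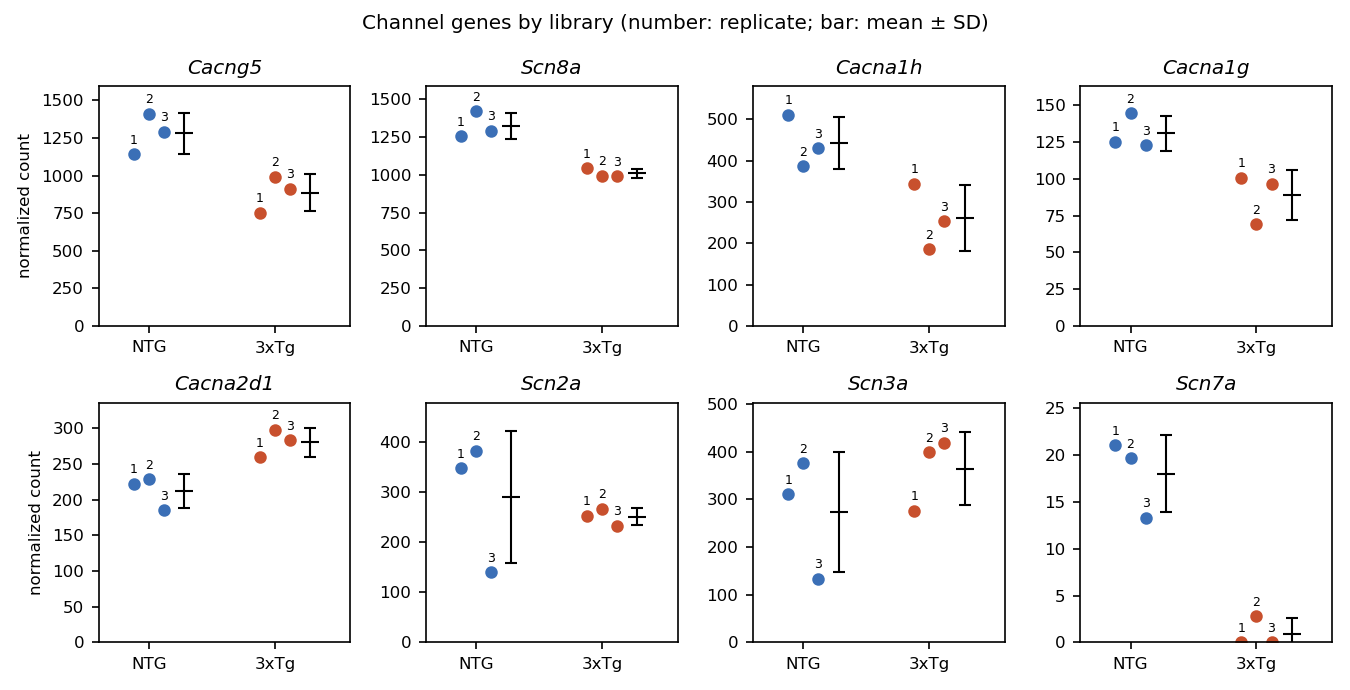
Normalized counts of 8 channel genes in each library (number, replicate), with the mean ± SD of each group of 3 beside the points and all axes from 0. Cacng5, Scn8a, Cacna1h and Cacna1g are lower in each 3xTg library, Cacna2d1 is higher in each, and NTG replicate 3 is the lowest library for Scn2a and Scn3a.

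Scn8a (chromosome 15, 100869858 to 101045938, plus strand) was the sodium channel α gene with the highest level and the smallest error. It was measured at 1257, 1422 and 1291 normalized counts in NTG and at 1046, 994 and 993 in 3xTg. The means were 1323 ± 87.2 and 1011 ± 30.4 (SD, n = 3 each), and the groups did not overlap. A log2 fold change of -0.39 (standard error 0.11, 95% interval -0.63 to -0.14, limma adjusted p = 0.0905) was below the fold threshold as well. Over the alternatives it stayed between -0.44 and -0.33, with adjusted p of 0.0118 to 0.295. DESeq2 gave -0.40 with an adjusted p of 0.0257, where only the fold threshold was missed.

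Scn2a and Scn3a, neighbours on chromosome 2 that are known from mature and from fetal neurons respectively, had no detectable difference between groups. Scn3a was at 310.1, 376 and 133 in NTG and 276, 399 and 419 in 3xTg (0.52, standard error 0.35, 95% interval -0.25 to 1.30, limma adjusted p = 0.383). Scn2a was at 348, 383 and 141 in NTG and 252, 267 and 233 in 3xTg (-0.085, standard error 0.33, 95% interval -0.82 to 0.65, limma adjusted p = 0.898). NTG replicate 3 decided both values. Without it the log2 fold change of Scn3a was 0.070 (limma adjusted p = 0.894) and that of Scn2a -0.54 (limma adjusted p = 0.155). The ratio of Scn3a to Scn2a per kb, formed after these values were seen, was 0.912, 1.003 and 0.968 in NTG and 1.12, 1.53 and 1.84 in 3xTg, with groups that did not overlap. It varied less in NTG (0.961 ± 0.046) than in 3xTg (1.49 ± 0.36, SD, n = 3 each). An exact permutation test of 3 against 3 allows no two-sided p below 0.1, and none is given for a ratio chosen in this way. Scn1a, of the sodium channel of inhibitory neurons, was also lowest in NTG replicate 3, with 69.0, 85.5 and 31.1 in NTG and 76.3, 50.6 and 67.7 in 3xTg (0.17, standard error 0.38, limma adjusted p = 0.821).

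NTG replicate 3 was also low in genes of the oligodendrocyte lineage. Summed levels of 5 oligodendrocyte markers were 225080 there and 467884 to 514005 in the other 5 libraries, and those of 6 oligodendrocyte precursor markers were 39611 there and 51972 to 88362 in the others. None of these markers was at 0 in any library. Of the precursor markers, Pdgfra, Sox10 and Gpr17 were lowest in this library, with Pdgfra, a growth factor receptor, at 2115 against 3347 to 9325 elsewhere, whereas Cspg4, Olig1 and Olig2 were lowest in 3xTg replicate 2. Of the 30 tested members, NTG replicate 3 was the lowest library for 9, among them Scn1a, Scn2a, Scn3a, Cacna1b and Cacnb4, while 3xTg replicate 2 was the lowest for 10, and NTG replicate 2 was the highest for 12. Between groups, 5 of the 6 precursor markers lay below 0 in 3xTg, where 49.2% of all tested genes did. Their 3xTg sums (51972 to 60509) lay within the NTG range (39611 to 88362). Without NTG replicate 2, 3 of the 6 lay below 0, and without NTG replicate 3 all 6 did. Over all 6 libraries, only Cspg4, of the NG2 proteoglycan, was called (-0.87, limma adjusted p = 0.0485). This call was lost with a minimum mean of 50, after GC trend removal, and without 3xTg replicate 2 or 3. The part of oligodendrocyte lineage cells in the channel values was not tested. Scn8a, Cacng5 and Cacna1h did not have their lowest NTG value in this library, and Cacna1g did, at 123 against 125 and 144.

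**Figure D4:**
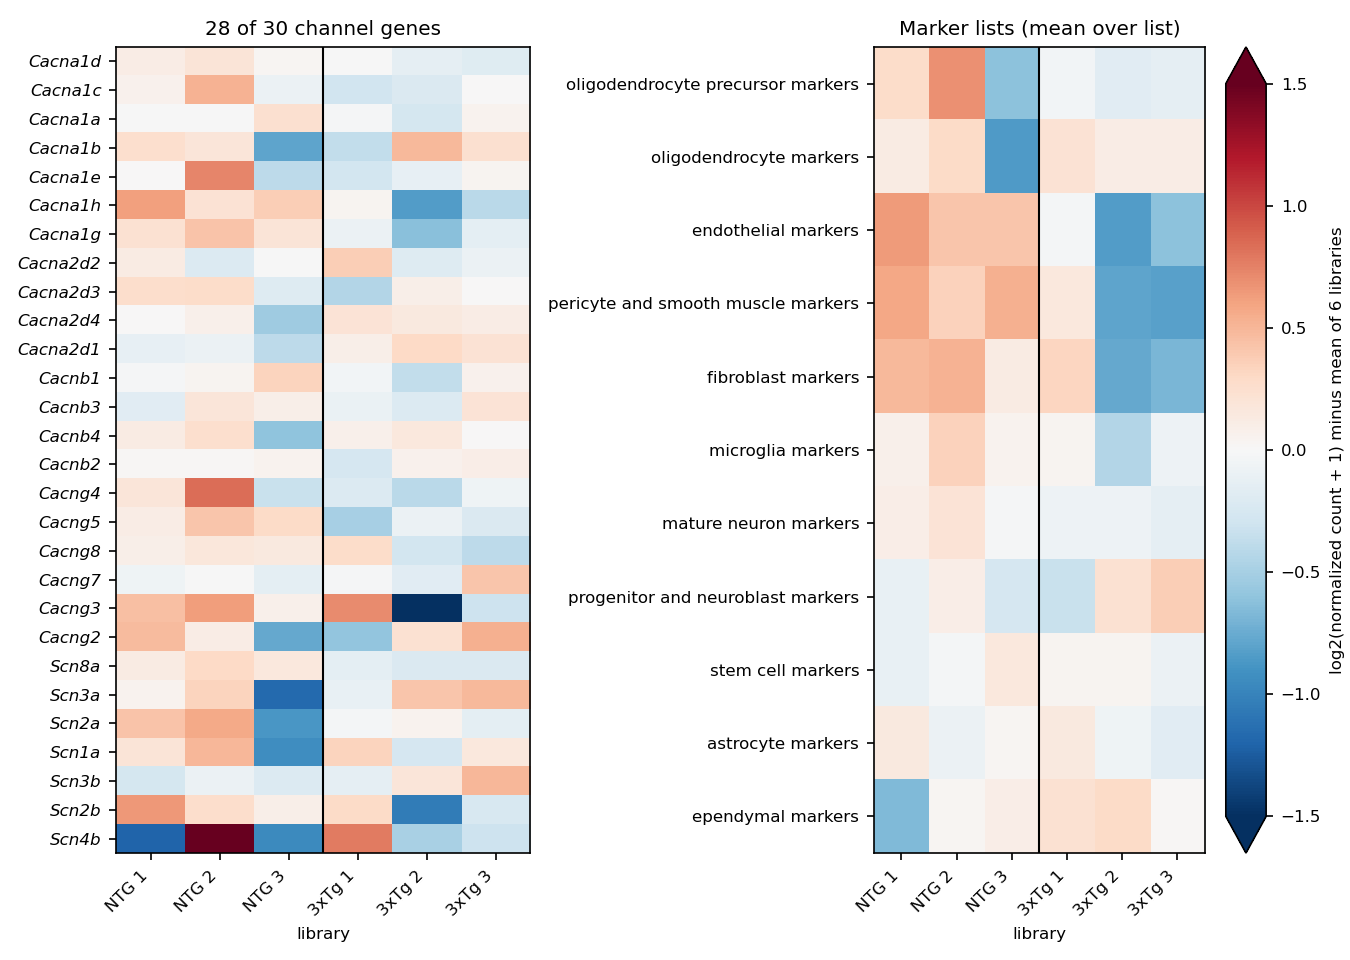
Log2(normalized count + 1) minus the mean of the 6 libraries, for 28 of the 30 tested channel genes (left, by family) and as the mean over each marker list (right), with NTG left of the black line and 3xTg right of it. NTG replicate 3 is low for Scn1a, Scn2a and Scn3a and for both oligodendrocyte lists, and 3xTg replicates 2 and 3 are low for Cacna1h and for endothelial and pericyte lists.

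The sodium channel β genes were not called either. Scn2b was at 57.3, 43.5 and 38.5 in NTG and 44.3, 16.9 and 30.5 in 3xTg (-0.67, standard error 0.38, 95% interval -1.52 to 0.18, limma adjusted p = 0.313). Its value was -0.31 without 3xTg replicate 2 and -0.98 without 3xTg replicate 1 (limma adjusted p = 0.754 and 0.115). Scn3b lay at 474 to 537 in NTG and 520.1 to 803 in 3xTg (0.37, limma adjusted p = 0.228). Scn4b was spread from 2.34 to 33.7 in NTG alone, and no change of it could be detected.

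Genes whose products bind or regulate these channels, or move calcium and sodium by other routes, were mostly uncalled as well. Of 62 such genes 61 were tested, 0 of them called higher and 2 lower, with 25 above and 36 below 0. Of all tested genes, 2.80% were called in either direction and 49.2% lay below 0. Among 14 partners of sodium channels (fibroblast growth factor homologous factors, ankyrins, spectrin, adhesion proteins and ubiquitin ligases) 0 were called, with 10 above and 4 below 0. The largest value there was that of Tnr, the extracellular matrix gene tenascin-R (0.66), which followed NTG replicate 3 (534, against 2289 and 3652 in the other NTG libraries) and turned to -0.15 without it. Of 23 partners of calcium channels 22 were tested and 1 was lower, with 5 above and 17 below 0. This was Calm3, a calmodulin gene, which fell from 8623, 9330.1 and 8080 to 6654, 5280.3 and 5786 (-0.56, limma adjusted p = 0.0368). Calm2, another calmodulin gene, lay at 0.22 and was not called. Rem1, a small GTPase gene whose product inhibits calcium channels, had the largest value of that list (-1.34, limma adjusted p = 0.151), at 118 to 204 in NTG and 145, 42.2 and 31.2 in 3xTg. Of the other genes of this GTPase family, Rrad lay at -0.67, Rem2 at 0.47 and Gem at 0.71 (limma adjusted p of 0.263, 0.492 and 0.142), and none was called. In the NALCN sodium leak complex 3 genes were tested and 0 called, with Nalcn at 0.41. Of 22 genes for calcium stores, pumps and exchangers 1 was lower. Atp2a3, the SERCA3 pump of the endoplasmic reticulum, fell from 2567, 2248 and 2960 to 1824, 773 and 877 (-1.26, limma adjusted p = 0.0429). Its 3xTg replicate 1 was the 3xTg library nearest to NTG, as for the summed endothelial and pericyte markers and along the first principal component of all tested genes. The part of vessel cells in this value was not tested. Itpr3, of an inositol trisphosphate receptor, had the largest value in size, -1.30 (limma adjusted p = 0.168). Both calls were lost in some fits. edgeR gave Atp2a3 an adjusted p of 0.0543. After removal of a GC trend Calm3 had -0.34 with a limma adjusted p of 0.120. Leaving out a single library ended the call of Calm3 in 4 cases, namely for NTG replicates 1 and 2 and for replicates 2 and 3 of 3xTg (limma adjusted p of 0.111 to 0.164). Atp2a3 was lost without any single library other than 3xTg replicate 1 (limma adjusted p of 0.0692 to 0.169).

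The size and sign of a change were related to exon GC content, taken from the longest transcript of each gene. With all tested genes split into 5 bins of like size by GC content, the median log2 fold change was 0.25 in the lowest bin and -0.20 in the highest. Cacna1h and Cacna1g, with 60.0% and 58.1% GC, lay in the highest bin, Cacna2d1 and Scn3a, with 40.7% and 42.1%, in the lowest, and Cacng5 and Scn8a, with 51.7% and 50.8%, between them. Removing the trend from each library moved Cacna1g to -0.35 and Cacna2d1 to 0.15 (limma adjusted p = 0.399 and 0.612), Cacna1h to -0.54 (limma adjusted p = 0.162) and the median of the members to -0.0048. Cacng5 and Scn8a moved less, to -0.49 and -0.37 (limma adjusted p = 0.102 and 0.0807). No member was called after removal, where 2.62% of all genes were.

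**Figure D5:**
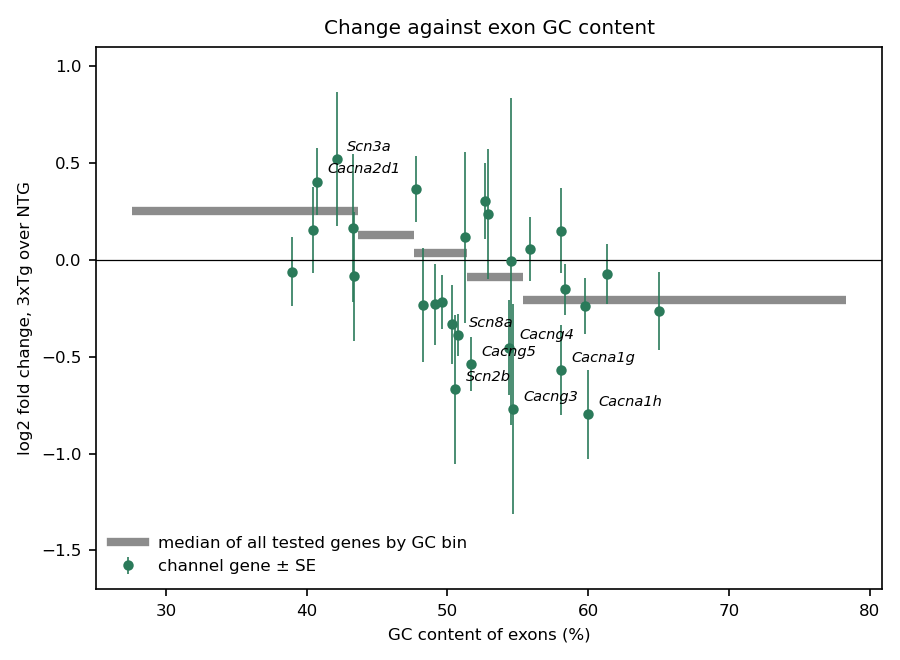
Log2 fold change, 3xTg over NTG, of 28 of the 30 tested channel genes (points, ± SE) against exon GC content of the longest transcript. Grey bars give the median of all tested genes in each of 5 GC bins. The grey bars step down from 0.25 to -0.20, and Cacna1h, Cacna1g, Cacng5 and Scn8a lie below the bar of their own bin.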

How the data were processed

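The deposited table holds signal values: the authors used HISAT2 for alignment to the mouse build GRCm38 (mm10), featureCounts to assign reads and DESeq2 to normalize them (versions not given), for 3 NTG and 3 3xTg libraries from SMART-Seq V4 and Nextera XT. All values (100% in each library, tolerance 0.01) were whole reads times 1 factor per library, so reads were recovered. The authors' own columns of mean, fold change, error, test statistic, p-values and weight were not used. Tests used limma-trend (limma 3.58.1, R 4.3.3) on log2(value + 1) for the 18664 genes whose mean reached 10, with Benjamini-Hochberg adjustment. Fold changes on this scale understate the change of low genes. edgeR 4.0.16 and DESeq2 1.42.0 on recovered reads were alternatives, with other pseudocounts, minimum means, scalings, sample weights, a replicate block, GC trend removal, thinned reads and single libraries left out. The 3 replicates per group are called biological, but their animals are not described, and p-values measure the spread between them.

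Members and lists were chosen with earlier results of these data known. Full values are given for members called or with unadjusted p under 0.05, those of highest level per kb or largest change in each family, Scn1a, Scn2a, Scn3a and Scn8a, and, of partner lists, called genes and the largest change. Exon length, GC content of the longest transcript and positions came from GENCODE M21 (55230 genes matched, 241 not). Tested on simulated data for this comparison (18664 genes), limma recovered 70% of changes of size 1 on the log2 scale and 95% of size 2, and 4.07% of its calls were false. The simulated reads held no GC trend and no library lying between the groups. Changes smaller than 1 were not simulated, so these rates do not cover changes as small as those of the tested members. Tables and figures were made with Python, pandas and matplotlib. A few genes, 2 of them members, and 1 shared sequence are not reported here, though all members enter the counts.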

Additional observations from a re-analysis of the deposited data

How the results depend on the processing

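Calls of all tested genes, 210 higher and 312 lower, became 604 and 733 with DESeq2 and 1196 and 1408 with sample weights, and 193 lower with a minimum mean of 50. Channel members called lower, 0 at first, were 1 with no minimum mean (Scn7a), 1 with upper-quartile scaling (Cacng5), 2 with DESeq2 (Cacng5 and Cacna1h) and 1 with sample weights (Cacna1h), where 1 was higher (Scn3b). Partner genes called higher, 0 at first, were 1 with DESeq2 and 2 with sample weights. Partner genes called lower, 2 at first, were 1 with a minimum mean of 50, with edgeR and after GC trend removal, 4 with DESeq2 and 8 with sample weights. Leaving out single libraries gave 46 to 963 higher and 112 to 1082 lower of all genes, 0 members higher and 0 to 2 lower (Cacna1h and Scn7a without 3xTg replicate 1, Scn7a without 3xTg replicate 2), and 0 to 2 partners higher and 0 to 5 lower. The highest counts came without 3xTg replicate 1. Scn7a reached the minimum mean only when a 3xTg library was left out, through its NTG values. The cause of these differences was not tested.

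Same-numbered libraries had correlations of 0.06, 0.20 and 0.04 after removal of group means, which does not show that the numbers pair libraries. A replicate block called 2 members lower, Cacna1h (limma adjusted p = 0.0388) and Cacng5 (0.0460), where 4.03% of all genes were called. Chosen after the data were seen, GC trend removal without 3xTg replicate 1 gave 433 higher and 743 lower of all genes and 2 partners higher, and GC trend removal with a replicate block 1 partner lower.

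Signs turned in 19 of 502 values for 24 named genes over 21 alternatives, all in genes not called. After GC trend removal, with or without the replicate block, Cacna1a turned to 0.0709, Cacnb1 to 0.0168 and Scn1a to -0.0264, and with 3xTg replicate 1 also left out to 0.11, 0.0629 and -0.21. With sample weights Cacna2d2 turned to -0.0741 and Scn1a to -0.0489. Over single libraries left out, Cacna1b ranged from -0.10 to 0.48, Cacna2d2 from -0.11 to 0.17, Scn1a from -0.26 to 0.45, Scn2a from -0.54 to 0.18, Nalcn from -0.0219 to 0.66 and Tnr from -0.15 to 1.24, where the lowest values came without NTG replicate 3 for all but Cacna2d2. With reads thinned to like depth, Scn1a, Scn2b and Cacng3, members of low level, had 0.13, -0.72 and -0.57.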
